A study of Mus musculus with 12 samples.

Results

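The genes described here are a set of 10 genes that mark tuft cells of the intestine: Pou2f3, Gfi1b, Trpm5, Sh2d6, Dclk1, Avil, Il25, Alox5ap, Ptgs1 and Hpgds. They were chosen by name, not by a threshold on their values in these libraries, and were found in the count tables by their Ensembl identifiers, which gave 10 of the 55487 genes in the tables. All 10 passed the filter on low counts that left 19581 genes for testing. Tuft cells are rare epithelial cells with a brush of long microvilli that sense the contents of the gut lumen through a cascade shared with taste cells, in which phospholipase C releases calcium and the cation channel Trpm5 opens. They are the main epithelial source of the cytokine Il25, which acts on lymphoid cells of the lamina propria in infections with worms and protists, and they make leukotrienes and prostaglandins. The transcription factor Pou2f3 is required for tuft cells to form.

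RNA was sequenced from crypts freshly isolated from the small intestine (SI tissue) and the large intestine (LI tissue) of C57BL/6 mice (C57BL/6NHsd). The mice were male and female and 6 to 10 weeks old. RNA was also sequenced from monolayers grown from such crypts on Matrigel for 24 h in control media with none of the study's test drugs (SI monolayers and LI monolayers). By the paper's methods, monolayers were seeded in medium with small-molecule inhibitors, Wnt3a, EGF and R-spondin. They were then kept in medium with Wnt3a, EGF, Noggin and R-spondin. Effects of these additions and of culture itself cannot be told apart. Each group had 3 libraries, from 3 mice for tissue and from 3 samples of pooled wells for monolayers, so that the spread between monolayer libraries may be technical. Standard errors and p-values of every comparison with monolayers, and of the interaction, may therefore not measure the spread between mice. By the paper's methods, LI monolayers were made from the same mice as SI monolayers, so SI and LI libraries may share animals. SI crypts came from the jejunum and were released with EDTA, whereas LI crypts were first digested with Collagenase D, Dispase and DNase, so that region and isolation cannot be told apart. Total counts per library lay between 59016196 and 76216530. Levels are given as normalized counts, that is, the counts of a gene divided by 1 size factor per library. They are always in the order of replicates 1, 2 and 3. A level of 3 counts, taken as the floor, corresponded to 2.67 to 3.53 normalized counts and covers counting error only. This floor takes each count as 1 fragment. If both mates of a pair were counted, 1 fragment would give 2 counts and the floor would lie higher.

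Marker genes of each region differed between the tissues. Gata4, a transcription factor of the proximal small intestine chosen after its values were seen, had 12942, 11668 and 11128 normalized counts in SI tissue and 226, 135 and 87.5 in LI tissue. Hoxb13, a homeobox factor of the distal large intestine, had 51.8, 48.0 and 39.1 in SI tissue and 22706, 19332 and 31592 in LI tissue. Levels of genes of the small intestine were not 0 in LI libraries: the summed level of 6 such genes (Gata4, Sis, Lct, Alpi, Apoa4 and Rbp2) was 1.26%, 0.71% and 0.371% of the SI tissue mean in LI tissue and 0.607%, 1.02% and 0.855% in LI monolayers. The source of these counts was not tested.

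The summed level of the 10 tuft cell genes was 29017, 32451 and 23679 normalized counts in SI tissue, 2308, 2478 and 2433 in SI monolayers, 3967, 4786 and 3056 in LI tissue and 688, 807 and 796 in LI monolayers. The sums of the 4 groups did not overlap. As shares of the SI tissue mean, the sums were 8.13%, 8.73% and 8.57% in SI monolayers, 13.98%, 16.9% and 10.8% in LI tissue and 2.43%, 2.84% and 2.81% in LI monolayers. In bulk RNA, fewer tuft cells and less RNA of these genes per tuft cell cannot be told apart.

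**Figure D1:**
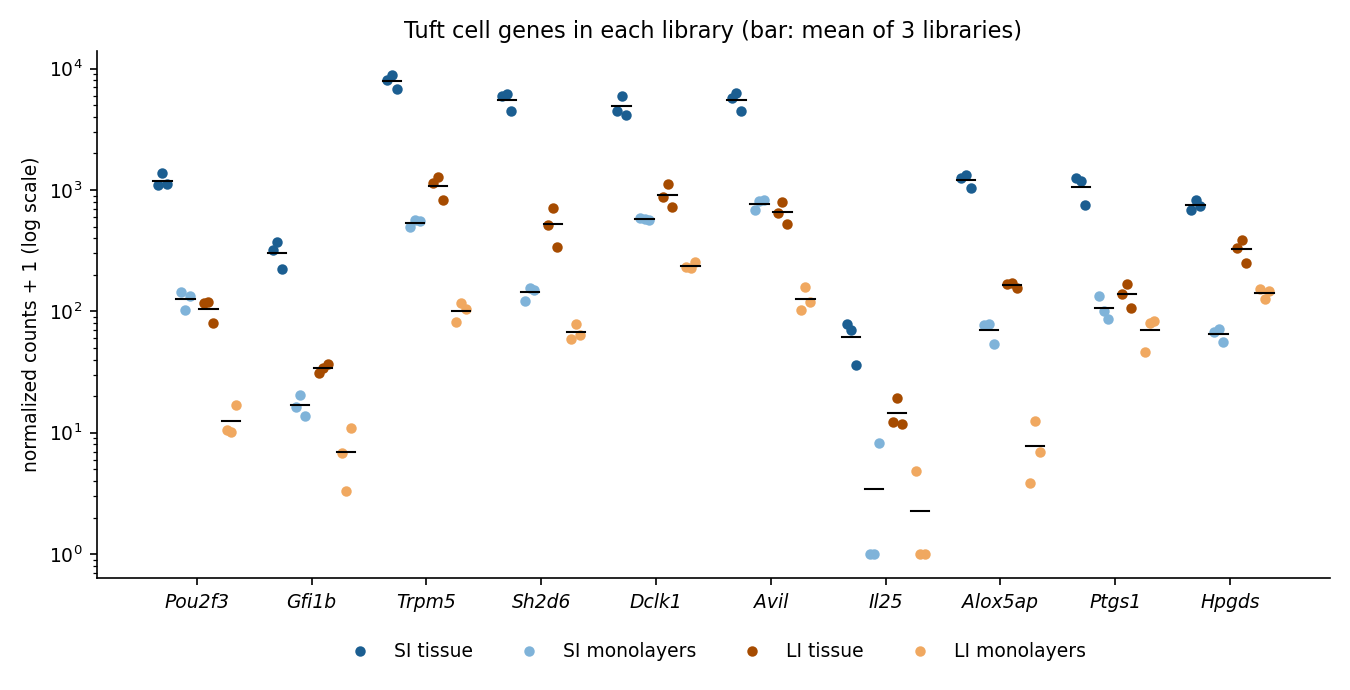
Normalized counts plus 1 (log scale) of the 10 tuft cell genes in each of the 12 libraries; each point is a library and each bar the mean of 3 libraries. For every gene the 3 SI tissue libraries lie above all other libraries, and Trpm5 runs from 8907 in SI tissue to 80.9 in LI monolayers.

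Over 24 h of culture, tuft cell genes fell in both regions. Counts of calls below are by edgeR's quasi-likelihood test with Benjamini-Hochberg adjustment over all tested genes, and a direction that is not given had no call. Shares of all tested genes are set beside these counts as a description only, since the members were chosen with earlier results of these data known. In SI monolayers against SI tissue, 10 of the 10 genes were lower (called where the edgeR adjusted p was under 0.05 and the log2 fold change was 1 or more in size), against 16.4% of all tested genes lower and 9.71% higher. Their median log2 fold change was −3.68, with −0.05 for all tested genes, and single genes ran from −5.24 for Sh2d6 to −2.80 for Avil. In LI monolayers against LI tissue, 9 of the 10 genes were lower, against 23.5% of all tested genes lower and 14.5% higher. The median log2 fold change there was −2.65, with −0.05 for all tested genes, and single genes ran from −4.58 for Alox5ap to −0.95 for Ptgs1, the gene that was not called. Scaling by the upper quartile lowered every log2 fold change of LI culture by 0.12, and in the other pairwise comparisons the shift was under 0.1; no tuft cell gene changed direction with it.

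Between the regions, tuft cell genes were higher in the small intestine before culture. In SI tissue against LI tissue, 10 of the 10 genes were higher, against 11.6% of all tested genes higher and 11.1% lower. Log2 fold changes of the members ran from 1.26 (Hpgds) to 3.56 (Pou2f3), with a median of 2.96 and 0.06 for all tested genes. In SI monolayers against LI monolayers, 7 genes were higher (Pou2f3, Gfi1b, Trpm5, Sh2d6, Dclk1, Avil and Alox5ap) and 1 was lower (Hpgds), against 12.4% of all tested genes higher and 8.88% lower; Il25 and Ptgs1 were not called. The median of the 10 log2 fold changes was 1.35, with 0.02 for all tested genes. The comparison of the tissues shares the SI tissue libraries with the SI culture comparison and the LI tissue libraries with the LI culture comparison, and values from them are given side by side only.

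The loss in culture differed in size between the regions for some of the genes. The interaction, which is the log2 fold change in SI culture minus that in LI culture, was called lower for 5 of the 10 genes (Gfi1b, Sh2d6, Dclk1, Ptgs1 and Hpgds), against 8.51% of all tested genes lower and 11.4% higher. These 5 genes fell further in SI culture than in LI culture. Interaction values of the other 5 genes lay between −1.37 (Il25) and 0.49 (Alox5ap) and did not pass the test, which does not show that their changes were equal. Without LI monolayers replicate 3, the count was 3 of 10 genes.

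**Figure D2:**
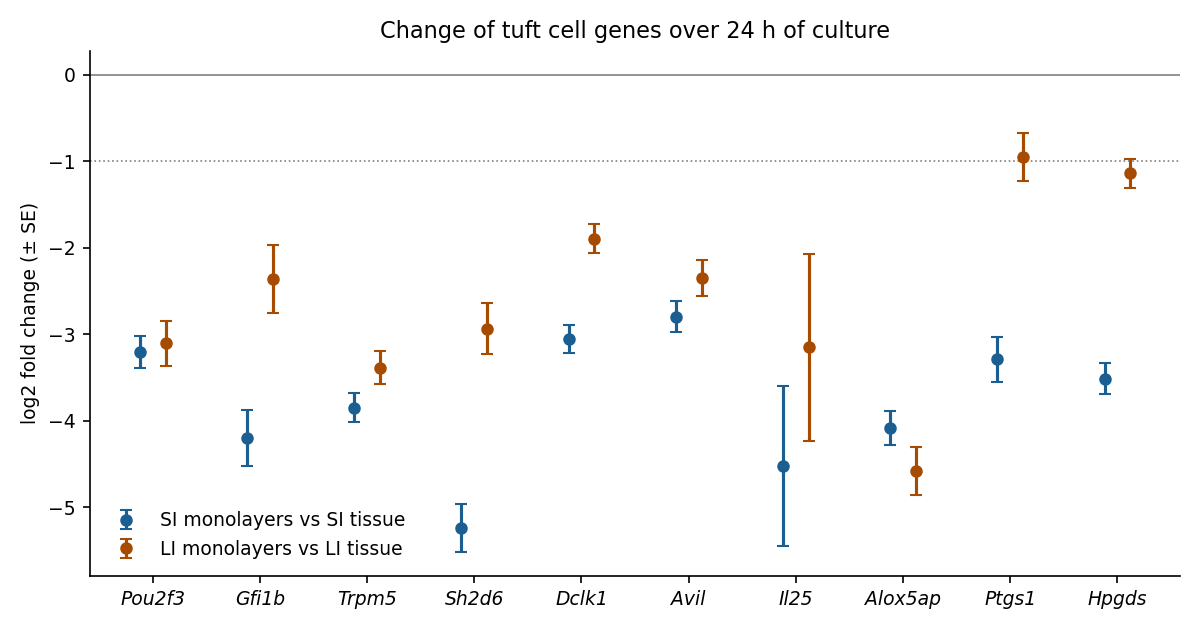
Log2 fold changes over 24 h of culture, with standard errors, for the 10 tuft cell genes in SI (blue) and LI (brown); the dotted line marks a log2 fold change of −1. All values lie below 0, and the SI and LI values lie furthest apart for Hpgds, Ptgs1 and Sh2d6.

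Pou2f3, the POU-domain transcription factor that specifies tuft cells (ENSMUSG00000032015.16; GRCm38 chr9:43123939-43210369, minus strand), had 1101, 1369 and 1109.6 normalized counts in SI tissue and 143, 102 and 133 in SI monolayers. In LI tissue its level was 116, 119 and 78.6, and in LI monolayers it was 9.63, 9.18 and 15.8. SI monolayers and LI tissue overlapped, SI tissue stood above both and LI monolayers below both. The log2 fold change was −3.21 ± 0.18 (SE; edgeR adjusted p = 3.41e-10) in SI culture and −3.11 ± 0.26 (edgeR adjusted p = 1.73e-08) in LI culture. Between these the interaction was −0.10 ± 0.38 (edgeR adjusted p = 0.859) and was not called, which does not show that the falls were equal. Its sign changed without SI tissue replicate 2, SI monolayers replicate 2, LI tissue replicate 3 or LI monolayers replicate 3, with values from 0.0039 to 0.31. LI monolayer values of Pou2f3 rested on 10, 8 and 16 counts. The regional difference was 3.56 on the log2 scale in tissue and 3.45 in monolayers.

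Gfi1b, a zinc finger repressor known from megakaryocytes and red cell precursors as well as tuft cells (ENSMUSG00000026815.14; chr2:28609450-28621982, minus strand), had 319.9, 369 and 221 normalized counts in SI tissue, 15.4, 19.6 and 12.8 in SI monolayers, 30.1, 33.0 and 35.7 in LI tissue and 5.78, 2.30 and 9.88 in LI monolayers. The 4 groups did not overlap, but the LI monolayer values rested on 6, 2 and 10 counts, and replicate 2 lay below the floor. Gfi1b fell by 18.4-fold in SI culture (log2 fold change −4.20 ± 0.32, edgeR adjusted p = 1.23e-08) and by 5.13-fold in LI culture (log2 fold change −2.36 ± 0.39, edgeR adjusted p = 5.56e-05). Without LI monolayers replicate 3, which held the highest LI monolayer value, the log2 fold change in LI culture was −2.97. The interaction was −1.85 ± 0.55 (edgeR adjusted p = 0.0112), and without the same library it was −1.19 and not called.

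Trpm5, the cation channel that depolarizes tuft and taste cells (ENSMUSG00000009246.14; chr7:143069153-143094642, minus strand), had 8102, 8907 and 6735 normalized counts in SI tissue. It had 490.5, 562 and 556 in SI monolayers, 1131, 1269 and 831 in LI tissue and 80.9, 117 and 103 in LI monolayers. The 4 groups were separate, in the order SI tissue, LI tissue, SI monolayers, LI monolayers. Trpm5 fell by 14.4-fold in SI culture (log2 fold change −3.85 ± 0.16, edgeR adjusted p = 1.83e-09) and by 10.4-fold in LI (log2 fold change −3.39 ± 0.19, edgeR adjusted p = 9.29e-09), with an interaction of −0.46 ± 0.24 (edgeR adjusted p = 0.15). Of its 6398 exonic bases, 220 are shared with Tssc4 on the opposite strand, which had a mean of 2049 normalized counts in LI monolayers. Whether reads were counted by strand is not stated in the sources used here, so the low LI monolayer values of Trpm5 are less certain.

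Sh2d6, an adaptor protein with an SH2 domain that marks tuft cells (ENSMUSG00000052631.15; chr6:72513641-72521707, minus strand), showed the largest fall in SI culture with all libraries in the fit. Its level was 5947, 6157 and 4443 normalized counts in SI tissue and 121, 156 and 149.5 in SI monolayers, and 512, 708 and 339 in LI tissue and 57.8, 78.0 and 62.3 in LI monolayers. All SI monolayer libraries were below all LI tissue libraries, although SI tissue was far above LI tissue. The fall was 37.8-fold in SI (log2 fold change −5.24 ± 0.28, edgeR adjusted p = 7.25e-08) and 7.65-fold in LI (log2 fold change −2.94 ± 0.30, edgeR adjusted p = 8.72e-06). The interaction was −2.30 ± 0.41 (edgeR adjusted p = 0.0012). The difference between the regions was 3.45 on the log2 scale in tissue and 1.15 in monolayers.

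Dclk1, a microtubule-associated kinase widely used as a tuft cell marker (ENSMUSG00000027797.15; chr3:55242364-55539068, plus strand), had 4509.6, 5942 and 4178 normalized counts in SI tissue and 585, 571 and 563 in SI monolayers. LI tissue had 882, 1121 and 723 and LI monolayers 229, 226 and 253. The monolayer replicates were close together in both regions, tissue replicates were more spread, and no groups overlapped. Dclk1 fell by 8.30-fold in SI culture (log2 fold change −3.05 ± 0.16, edgeR adjusted p = 3.93e-09) and by 3.72-fold in LI culture (log2 fold change −1.90 ± 0.16, edgeR adjusted p = 3.45e-07). The interaction was −1.16 ± 0.22 (edgeR adjusted p = 0.00096), and its size was just under 1 without SI tissue replicate 2 (−0.9965) or LI monolayers replicate 3 (−0.993). Dclk1 is a large gene whose RNA is also known from neurons.

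Avil, which encodes the actin-binding protein advillin of the tuft cell's microvilli (ENSMUSG00000025432.11; chr10:127000709-127020994, plus strand), kept the most of its level in SI culture. It had 5765, 6305 and 4434 normalized counts in SI tissue, 679, 818 and 819 in SI monolayers, 646, 792 and 528 in LI tissue and 101, 157 and 118 in LI monolayers. SI monolayers and LI tissue overlapped and the other groups were separate. The log2 fold change was −2.80 ± 0.18 in SI culture (edgeR adjusted p = 1.12e-07), −2.35 ± 0.21 in LI culture (edgeR adjusted p = 1.13e-06) and −0.45 ± 0.27 for the interaction (edgeR adjusted p = 0.211). Avil shares 165 of 3398 exonic bases with Tsfm on the opposite strand, which had means of 1705 to 2863 normalized counts over the groups. As for Trpm5, the low LI monolayer values of Avil are less certain because counting by strand is not stated.

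Il25, the cytokine by which tuft cells act on lymphoid cells (ENSMUSG00000040770.5; chr14:54932695-54935837, plus strand), had the lowest group means of the set per kilobase. It had 66, 66 and 36 counts in SI tissue, or 77.6, 68.8 and 35.2 normalized counts, and 12, 20 and 12 counts in LI tissue, or 11.3, 18.3 and 10.7 normalized counts. In SI monolayers replicates 1 and 2 had 0 counts and replicate 3 had 8, and in LI monolayers replicate 1 had 4 counts and replicates 2 and 3 had 0. A count of 0 allows up to 2.88 and 2.67 normalized counts in SI monolayers 1 and 2, and up to 3.44 and 2.96 in LI monolayers 2 and 3. These bounds take each count as 1 fragment. The Il25 counts were even numbers in every library, and the bounds would be higher if both mates of a pair were counted. Each tissue group was above its monolayers, SI and LI tissue did not overlap, and the monolayer groups did. The log2 fold change was −4.52 ± 0.92 in SI culture (edgeR adjusted p = 0.000539) and −3.15 ± 1.08 in LI culture (edgeR adjusted p = 0.017); these fitted values depend on few counts, and they were −8.91 without SI monolayers replicate 3 and −6.80 without LI monolayers replicate 1, each of which leaves a group at 0. The LI call was lost without LI monolayers replicate 2 (−2.73) or 3 (−2.66), and the call between the tissues (log2 fold change 2.20) was lost without SI tissue replicate 1 (1.98) or 2 (2.10), or without LI tissue replicate 1 (2.08) or 3 (2.06). Without SI monolayers replicate 3, which leaves that group at 0, the fitted interaction was −5.69 and was called lower, and the fitted difference between the monolayers was −3.57. Without LI monolayers replicate 1 the interaction was 2.31.

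The remaining 3 genes act in the making of eicosanoids, lipid mediators derived from arachidonic acid. Alox5ap, which presents arachidonic acid to 5-lipoxygenase for leukotriene synthesis (ENSMUSG00000060063.9; chr5:149264767-149288153, plus strand), had 1248, 1319.7 and 1045 normalized counts in SI tissue and 76.8, 77.4 and 52.9 in SI monolayers. LI tissue had 168, 171 and 154 and LI monolayers had 2.89, 11.5 and 5.93, from 3, 10 and 6 counts. The 4 groups were separate, and LI monolayers were near the floor. Alox5ap fell by 23.9-fold in LI culture (log2 fold change −4.58 ± 0.28, edgeR adjusted p = 3.57e-10), next to 17.00-fold in SI culture (log2 fold change −4.09 ± 0.19, edgeR adjusted p = 4.57e-11). Without LI monolayers replicate 2 the log2 fold change in LI culture was −5.21, and that between SI and LI monolayers was 3.99 in place of 3.41. The interaction was 0.49 ± 0.38 (edgeR adjusted p = 0.309), but 1.16 and called higher without the same library. In LI monolayers Alox5ap stood at 0.240%, 0.953% and 0.492% of its SI tissue mean, Pou2f3 at 0.807%, 0.77% and 1.33% and Gfi1b at 1.90%, 0.757% and 3.26%, each with at least 1 library within the range of the summed small intestine genes in LI monolayers (0.607% to 1.02%). Single small intestine genes ran wider in LI monolayers, from 0.109% of the SI tissue mean (Lct, replicate 1) to 4.17% (Alpi, replicate 2). That range also holds Trpm5 at 1.02%, 1.48% and 1.30%, Sh2d6 at 1.05%, 1.42% and 1.13%, and Avil at 1.84%, 2.86% and 2.14%. Whether counts of that kind make up a part of the levels of these members, and so of the differences between the monolayers, was not tested. Alox5ap shares 189 of 1420 exonic bases with Gm19719 on the opposite strand, whose group means were at most 6.16 normalized counts.

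Ptgs1, the constitutive cyclooxygenase (ENSMUSG00000047250.13; chr2:36230426-36252272, plus strand), had 1263, 1181 and 747 normalized counts in SI tissue and 132, 101 and 84.8 in SI monolayers. It had 137, 168 and 106 in LI tissue and 45.2, 79.2 and 82.0 in LI monolayers. SI tissue stood apart from the other groups, SI monolayers overlapped with LI tissue, and LI tissue was above LI monolayers with a small gap. Ptgs1 fell by 9.79-fold in SI culture (log2 fold change −3.29 ± 0.26, edgeR adjusted p = 6.22e-08). In LI culture the log2 fold change was −0.95 ± 0.27 (edgeR adjusted p = 0.00672), which missed the minimum fold; it passed with upper quartile scaling (−1.07) and without SI monolayers replicate 1, 2 or 3, LI tissue replicate 3, or LI monolayers replicate 2 or 3, with values from −1.18 to −1.02. The interaction was −2.34 ± 0.37 (edgeR adjusted p = 0.000143), and the difference between SI and LI monolayers was 0.66 ± 0.28 (edgeR adjusted p = 0.0636). Ptgs1 is known from many other cells, among them platelets and fibroblasts.

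Hpgds, the hematopoietic prostaglandin D synthase (ENSMUSG00000029919.5; chr6:65117293-65144908, minus strand), had the smallest regional difference in tissue and the reverse order in culture. It had 685, 834 and 731 normalized counts in SI tissue and 333, 388 and 249 in LI tissue, but 66.2, 71.2 and 54.7 in SI monolayers and 152, 126 and 147 in LI monolayers. No groups overlapped, and the SI monolayer libraries were the lowest of all 12. Hpgds fell by 11.4-fold in SI culture (log2 fold change −3.51 ± 0.18, edgeR adjusted p = 1.18e-10) and by 2.20-fold in LI culture (log2 fold change −1.14 ± 0.17, edgeR adjusted p = 1.52e-05). The interaction was −2.37 ± 0.24 (edgeR adjusted p = 9.2e-07), the largest in size of the set, and the difference between SI and LI monolayers was −1.12 ± 0.18 (edgeR adjusted p = 8.14e-05). Calls were lost at the minimum fold without LI tissue replicate 2 (−0.984 in LI culture) and without SI monolayers replicate 3 (−0.988 between monolayers). Hpgds is also known from mast cells, macrophages and megakaryocytes.

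Compared per kilobase of exon, the relative levels of the 10 genes changed with culture. Sh2d6 made up 39.3 ± 1.01% (SD, n = 3) of the summed per-kilobase level of the set in SI tissue and 14.7 ± 1.25% in SI monolayers, while Avil went from 19.5 ± 0.346% to 39.8 ± 2.44%. The leading gene per kilobase was Sh2d6 in SI tissue and LI tissue and Avil in SI monolayers, while in LI monolayers Sh2d6 and Avil did not differ beyond their spread, with Avil above Sh2d6 in replicate 2. In LI, the share of Hpgds was 5.07 ± 0.122% in tissue and 14.1 ± 3.005% in monolayers, that of Ptgs1 was 3.55 ± 0.029% and 10.9 ± 2.33%, and that of Alox5ap was 11.97 ± 2.15% and 2.86 ± 1.56%. Trpm5 kept a share of 14.97 ± 0.443% in SI tissue and 14.7 ± 0.428% in SI monolayers, and had 17.00 ± 0.745% in LI tissue and 9.75 ± 0.598% in LI monolayers. Il25 had the lowest group mean per kilobase in all 4 groups, but in LI monolayers this mean rests on 4, 0 and 0 counts, and in replicate 1 Il25 lay above Alox5ap, Pou2f3 and Gfi1b. These shares are descriptions and were not tested.

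In the order of levels, SI tissue came first for each of the 10 genes. LI tissue and SI monolayers overlapped for Pou2f3, Avil and Ptgs1, and for the other genes LI tissue lay above SI monolayers. The last place was taken by SI monolayers for Hpgds, the monolayers overlapped for Il25, and for the other genes LI monolayers came last. The share of all tested genes with such an order was not counted, so the order is not read as particular to these genes. Among the SI tissue libraries, replicate 3 had the lowest level for 8 of the 10 genes, and replicate 1 for Pou2f3 and Hpgds. How many of all tested genes were lowest in replicate 3 was not counted either.

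Other genes known from tuft cells were measured as well, in lists also chosen with earlier results of these data known. For every list below, the background is the share of all tested genes called: 16.4% lower and 9.71% higher in SI culture. In LI culture it was 23.5% lower and 14.5% higher. Between SI and LI it was 11.6% higher and 11.1% lower in tissue, and 12.4% higher and 8.88% lower in monolayers. For the interaction it was 8.51% lower and 11.4% higher. A list count near these shares says nothing particular of the list. Of a list of 20 further tuft cell genes, all tested, 18 were lower and 1 higher in SI culture (median log2 fold change −3.93), and 16 were lower and 1 higher in LI culture (median −2.27). In SI tissue against LI tissue 16 were higher and 1 lower (median 2.59), and in the monolayers 9 were higher and 2 lower (median 0.69). For the interaction, 6 were lower and 1 higher (median −0.84). Leukocytes also express several of them, such as Ptpn6, Fyb, Vav1 and Spib.

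The 4 most abundant genes of that list were Cd24a, Cwh43, Skap2 and Kctd12. Cd24a, a surface glycoprotein of many crypt cells, had 25626, 30317 and 32789.5 normalized counts in SI tissue and 12157, 11859.9 and 11439 in SI monolayers (log2 fold change −1.29), and its change in LI culture was not called (−0.64). Cwh43, which acts in the remodelling of lipid anchors, rose in culture, from 741, 959 and 806 in LI tissue to 33283, 34352 and 33777 in LI monolayers (log2 fold change 5.38) and from 595, 669 and 387 to 2265, 2039 and 2239.5 in SI (log2 fold change 2.02). No LI monolayer library was near any other group for Cwh43. The adaptor Skap2 had 6256, 7782 and 6079.7 in SI tissue and 3028, 3077 and 3132 in SI monolayers (log2 fold change −1.09). It had 8986, 8447 and 9406 in LI tissue and 6617, 6532 and 6812 in LI monolayers, with no call in LI culture (−0.38). Between the monolayers Skap2 was called lower in SI (log2 fold change −1.08). Kctd12 had 11731, 15902 and 10764 in SI tissue and 1679, 1706 and 1550.2 in SI monolayers (log2 fold change −2.92).

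Other genes of the list were chosen here after their values were seen. Siglecf, a sialic acid-binding lectin, had 3556, 3726 and 2206 normalized counts in SI tissue, 126, 139 and 119 in SI monolayers, 248, 256 and 167 in LI tissue and 3.85, 18.4 and 11.9 in LI monolayers. Chat, which makes acetylcholine, had 222, 222 and 163 in SI tissue, 9.60, 8.90 and 9.12 in SI monolayers, 16.9, 62.2 and 28.6 in LI tissue and 1.93, 4.59 and 13.8 in LI monolayers. For Siglecf the 4 groups were separate, while for Chat the monolayer groups overlapped. Nrep was the exception between the tissues, with 242, 239.8 and 297 in SI tissue and 744, 972 and 466 in LI tissue (log2 fold change −1.44).

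Of 8 genes of the taste-like cascade upstream of Trpm5, 6 were tested; 4 were lower in SI culture (median −3.04), and 2 were lower in LI culture (median −0.27). Between the tissues 3 were higher in SI (median 1.09), and between the monolayers 2 were higher (median 0.47). For the interaction 2 were lower (median −0.81). Itpr3, the calcium release channel, was the most abundant and had 16806, 19416 and 16105 normalized counts in SI tissue and 12342, 12676 and 12704 in SI monolayers, with no call in any comparison. Plcb2, the phospholipase of the cascade, had 1199.7, 1349 and 1044 in SI tissue, 82.5, 67.7 and 45.6 in SI monolayers, 154, 204 and 129 in LI tissue and 1.93, 20.7 and 7.91 in LI monolayers, with the groups in the same order as Trpm5 and separate.

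Sucnr1, the receptor for succinate, had 469, 613 and 372 normalized counts in SI tissue, 5.76, 10.7 and 5.47 in SI monolayers, 1.88, 5.49 and 1.79 in LI tissue and 3.85, 6.89 and 1.98 in LI monolayers. The 3 groups other than SI tissue overlapped, with at most 10.7 normalized counts in a library. Gnat3, the alpha subunit gustducin, had 154, 256 and 141 in SI tissue and 148, 251 and 63.4 in LI tissue, which overlapped (log2 fold change 0.29 ± 0.41, edgeR adjusted p = 0.583). Gnat3 fell to 12.5, 7.12 and 5.47 in SI monolayers and 1.93, 0 and 1.98 in LI monolayers. The genes of the list that were not tested are named for that reason: Tas1r1 had at most 8.03 normalized counts in a library and Gnb3 at most 5.87.

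Around the 3 eicosanoid genes, a list of 11 further enzymes was mixed. In SI culture 4 were lower (median −0.13), and in LI culture 5 were lower and 2 higher (median −0.83). Between the tissues 3 were higher and 3 lower in SI (median 0.38), between the monolayers 2 were higher and 5 lower (median 0.002), and for the interaction 1 was lower and 1 higher (median −0.42). The most abundant were Lta4h, which makes leukotriene B, with 20818, 20784 and 17495 normalized counts in SI tissue and 17529, 17299 and 17985 in SI monolayers, and Ptges3, with 5730.5, 5646 and 5996 in SI tissue and 11150.3, 11217 and 10453 in SI monolayers. Neither was called in SI culture, where Ptges3 (log2 fold change 0.95, edgeR adjusted p = 2.33e-10) missed the minimum fold. In LI culture Ptges3 was called higher (log2 fold change 1.33). Hpgd, which inactivates prostaglandins, fell from 7408, 6397 and 5836 to 1379, 1569 and 1518 in SI (log2 fold change −2.10), and Ptges2 from 7107, 7423 and 6697 to 3029, 3447 and 3337 (−1.08).

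Chosen after their values were seen, the partners of Alox5ap were called lower in both cultures. Alox5, the 5-lipoxygenase, had 3893, 4210.3 and 3173 normalized counts in SI tissue, 171, 185 and 181 in SI monolayers, 530.0, 654 and 361 in LI tissue and 27.0, 52.8 and 43.5 in LI monolayers. Ltc4s, which makes leukotriene C, had 419, 372 and 358 in SI tissue, 36.5, 38.3 and 35.6 in SI monolayers, 67.7, 77.8 and 42.8 in LI tissue and 4.81, 19.5 and 7.91 in LI monolayers. For both genes the 4 groups were separate and ran from SI tissue through LI tissue and SI monolayers to LI monolayers. Ptgs2, the inducible cyclooxygenase, went the other way in LI: 348, 7.32 and 173 in LI tissue and 4041, 4643 and 4844 in LI monolayers (log2 fold change 4.73 ± 0.73, edgeR adjusted p = 0.000371), while SI tissue had 506, 534 and 419 and SI monolayers 308, 516 and 523, which overlapped.

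Of 11 genes that act with Il25 in immunity to worms, 9 were tested. In SI culture 3 were lower (median −0.33), in LI culture 2 were lower and 1 higher (median 0.30). Between SI and LI tissue 2 were higher and 1 lower (median 0.42), between the monolayers 2 were higher (median −0.21), and for the interaction 1 was lower and 1 higher (median −0.29). Retnlb, a goblet cell product induced in worm infection, had 49909.6, 75757 and 45833 normalized counts in LI tissue and 243, 181 and 188 in LI monolayers (log2 fold change −8.08), with 2195, 3152 and 4936 in SI tissue and 184, 135 and 12.8 in SI monolayers. The signal transducer Stat6 (10868, 11322 and 10672 in SI tissue, 11909, 11738 and 11907 in SI monolayers) and the receptor subunits Il13ra1 (7211, 8656 and 7228 in SI tissue, 7325, 7038 and 6495 in SI monolayers) and Il4ra (3889.7, 4655 and 3880.1 in SI tissue, 3117, 3185 and 3353 in SI monolayers) were called in no comparison.

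Il17rb, a subunit of the receptor for Il25 that tuft cells also carry, was singled out after its values were seen: 809, 744 and 466 normalized counts in SI tissue, 62.4, 62.3 and 72.0 in SI monolayers, 120.3, 179 and 127 in LI tissue and 10.6, 5.74 and 16.8 in LI monolayers. It fell by 9.99-fold in SI culture (edgeR adjusted p = 1.16e-08) and by 12.1-fold in LI culture (edgeR adjusted p = 4.15e-08). Also chosen after their values were seen, its partner Il17ra, which other epithelial cells express, was called in neither, and Il13, the cytokine that expands tuft cells, had 4.70, 20.8 and 9.78 normalized counts in SI tissue, 0, 1.83 and 0 in LI tissue and 0 counts in all 6 monolayer libraries.

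A further list held 9 regulators of secretory cell fate: the transcription factors Atoh1, Gfi1, Sox4, Sox9, Spdef and Neurog3, the Notch ligands Dll1 and Dll4, and Hes1, a Notch target that represses this fate. Of these, 2 were lower in SI culture (median −0.55), and 6 were lower and 1 higher in LI culture (median −1.98). Between the tissues 2 were higher and 1 lower in SI (median −0.44), between the monolayers 5 were higher (median 1.12), and for the interaction 5 were higher (median 1.56). Atoh1, the master regulator of goblet, Paneth and endocrine cells, had 1684, 2225 and 2911 normalized counts in SI tissue and 1545, 1502 and 1516 in SI monolayers, with 6232, 6784 and 6188 in LI tissue and 895, 918 and 847 in LI monolayers. Sox4, which acts upstream of tuft cells, had 2899, 2968 and 3617 in SI tissue and 4268, 4357 and 4168 in SI monolayers (not called) and rose from 3103, 2994 and 2894 to 7244, 7781 and 7737 in LI (log2 fold change 1.39). Spdef had 2571, 3899.7 and 4149 in SI tissue and 2056, 2152 and 2352 in SI monolayers, and Hes1 had 2255, 2416 and 2778 in SI tissue and 2380.4, 2794 and 2839.5 in SI monolayers; neither was called there.

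Markers of lymphocytes fell with the tuft cell genes. Of 9 T cell genes, 9 were lower in SI culture (median log2 fold change −4.04) and 9 in LI culture (median −3.77), with none higher in either by edgeR, and no marker at 0 throughout a group. Their summed level, led by Gzma, was 39384, 40631 and 28575 normalized counts in SI tissue, 1202, 1063 and 1039 in SI monolayers, 3141, 2199.5 and 2570.1 in LI tissue and 142, 288 and 218 in LI monolayers with no overlap, the same order of groups as the summed tuft cell genes. The sum of 5 genes of all leukocytes, led by Ptprc, was 9737, 11149 and 6930.2 in SI tissue, 603, 638 and 519 in SI monolayers, 3344, 2752 and 2947 in LI tissue and 198, 248 and 199.6 in LI monolayers, and 5 of 5 were lower in SI culture (median −4.03) and 5 of 5 in LI culture (median −3.85). Over the SI tissue libraries, replicate 3 was lowest for both lists and for the sum of the tuft cell genes. The part of leukocyte RNA in the levels of Alox5ap, Ptgs1, Hpgds and Gfi1b, which leukocytes also express, was not tested.

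Lists of other cells in which Gfi1b, Ptgs1 or Hpgds are also known were measured as well. The 9 mast cell genes were led by Kit, which other crypt cells also express, with sums of 3551, 5499.8 and 6242 normalized counts in SI tissue, 3207, 3577 and 3316 in SI monolayers, 5092, 5393 and 5304 in LI tissue and 1937, 1971 and 2095 in LI monolayers. Of these genes 2 were lower and 2 higher in SI culture, and 8 lower and 1 higher in LI culture. In LI monolayers Fcer1a, a mast cell receptor chosen after its values were seen, was at 0 in the 3 libraries, while the protease Cma1 had 1312, 1333 and 1368 (log2 fold change 2.68 in LI culture) and Kit 555, 585 and 674 (−2.36). The proteases Mcpt1 and Mcpt2 had 45.2, 34.4 and 29.6 and 9.63, 4.59 and 9.88 in LI monolayers. By contrast, SI monolayers had 1651, 1921 and 1779.9 for Mcpt1 and 586, 544 and 543 for Mcpt2. Neither was called in SI culture (log2 fold changes 0.10 and −0.26), where Cpa3 and Cma1 were called higher and Tpsb2 and Kit lower. The 9 megakaryocyte and red cell genes, led by Hbb-bs, summed to 1195, 1249 and 940.4 in SI tissue, 75.8, 73.9 and 87.5 in SI monolayers, 4156, 4545 and 4256 in LI tissue and 164, 146 and 162 in LI monolayers, with 4 lower of 8 tested genes in SI culture, and 7 lower and 1 higher in LI culture. Of the platelet genes, Pf4 had 124, 104 and 119.6 in LI tissue, 9.63, 16.1 and 9.88 in LI monolayers (log2 fold change −3.24), 0, 0 and 1.96 in SI tissue and 0 in SI monolayers. Chosen after their values were seen, Ppbp was at 0 in LI tissue and had 27.0, 23.0 and 15.8 in LI monolayers, and Gp9 was at 0 in SI monolayers. The fitted log2 fold change of Ppbp in LI culture (7.50) rests on a group at 0, so its size was not measured. Macrophage genes (10, led by Cd14, which the epithelium also expresses, but by Lyz2 in SI tissue and Mrc1 in SI monolayers) summed to 2499, 3867 and 6167 in SI tissue, 8302, 8019.7 and 8191 in SI monolayers, 9966, 8588 and 9174 in LI tissue and 13833, 13525 and 13093 in LI monolayers, with 4 lower and 3 higher in SI culture and 6 lower and 2 higher in LI culture. Of the sums, Mrc1 made up 49.4, 49.0 and 145 in SI tissue and 3530.2, 3539 and 3516 in SI monolayers. Called higher in SI culture were Cd68, Cd14 and Mrc1, while Adgre1, C1qa, C1qb and C1qc were called lower, so the sum does not stand for the list. Lyz2 had 1547, 2601 and 4889.9 in SI tissue, rising over the replicates as the summed Paneth cell genes did, and its source was not tested. None of these lists was at 0 as a whole, and their part in the members' levels was not tested.

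Mesenchymal genes (10, led by Col1a1) summed to 1758, 671 and 589 normalized counts in SI tissue, 641, 1236 and 1288 in SI monolayers, 4258, 3504 and 2653 in LI tissue and 3585, 3357 and 2218 in LI monolayers. In LI culture 4 were lower and 2 higher, and in SI culture 2 were lower. Neuronal and glial genes (8, led by Snap25) summed to 1116, 1125 and 1120.3 in SI tissue, 1169, 1059 and 1164 in SI monolayers, 975, 616 and 547 in LI tissue and 1236, 1168 and 1250.0 in LI monolayers, with no call among 8 tested genes in SI culture and 2 higher in LI culture by edgeR. The part of mesenchymal RNA in the Ptgs1 and Hpgds levels, and that of neuronal RNA in the Dclk1 level, was not tested.

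Other epithelial lists are given by their medians, beside −3.68 in SI culture and −2.65 in LI culture for the tuft cell genes. For 9 enteroendocrine genes, led by Chgb, the median log2 fold change was −0.14 in SI culture (1 lower and 2 higher) and 1.88 in LI culture (6 higher). For 7 goblet cell genes, led by Clca1, it was −0.73 (3 lower) in SI culture and −3.74 (7 lower) in LI culture. For 6 Paneth cell genes, led by Lyz1, it was −1.27 (1 lower) in SI culture and −0.27 (1 lower) in LI culture. For 6 stem cell genes of the crypt base, led by Olfm4, it was −0.76 (2 lower) in SI culture and −3.80 (4 lower) in LI culture. For the 6 genes of the small intestine, led by Sis, it was −2.14 (3 lower) in SI culture and 0.46 (no call by edgeR) in LI culture. In LI culture the goblet and stem cell medians were thus further below 0 than that of the tuft cell genes. The median of 7 genes of all epithelial cells, led by Krt8, was 0.02 in SI culture (3 higher) and −0.004 in LI culture (1 lower and 2 higher). The differences between lists were not tested.

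The SI tissue libraries differed in the sums of cell type markers. Summed Paneth cell genes were 324062, 614306 and 1536589 normalized counts and summed genes of the small intestine, which absorptive cells of the villus express, were 610644, 520208 and 394379. Replicate 3 was thus highest for Paneth cells and lowest for absorptive cells, T cells and the tuft cell genes. In LI tissue, replicate 2 had the highest sum of tuft cell genes (3967, 4786 and 3056 normalized counts), while the sum of the small intestine genes was highest in replicate 1 (6394, 3608 and 1889).

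**Figure D3:**
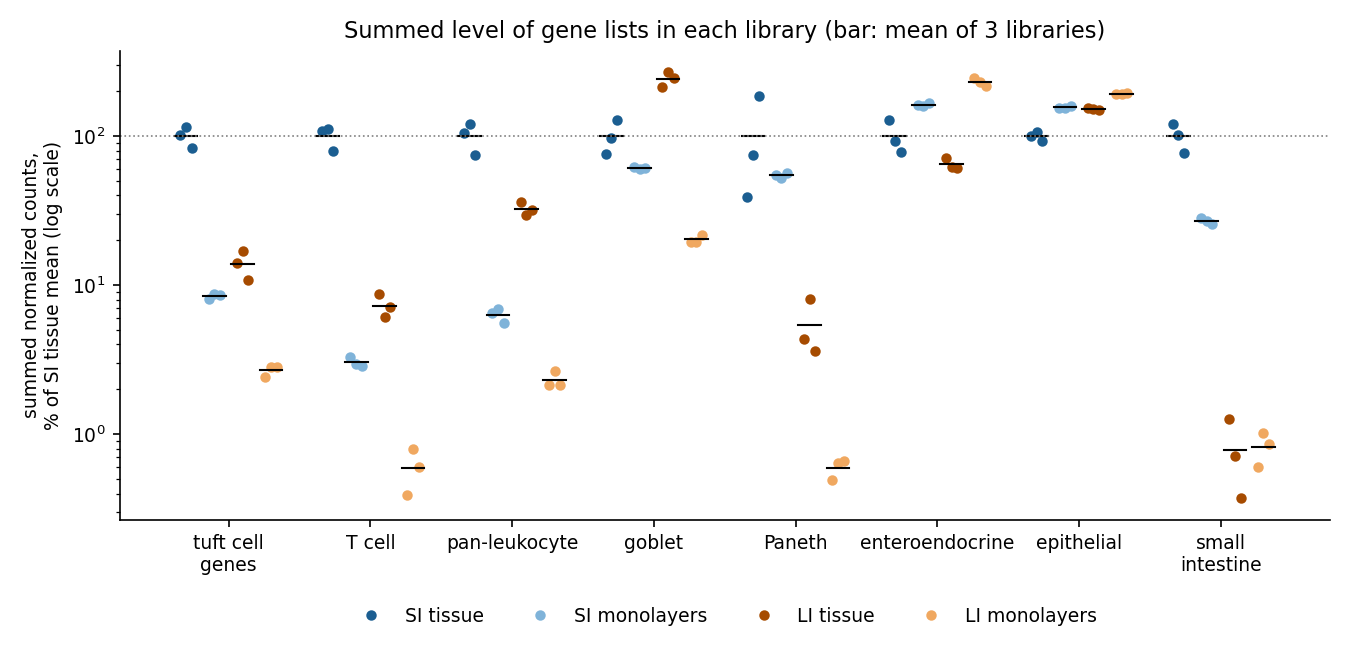
Summed normalized counts of the tuft cell genes and of 7 lists of marker genes in each of the 12 libraries, as a percentage of the SI tissue mean (log scale, dotted line at 100%); each point is a library and each bar the mean of 3 libraries. The tuft cell sums lie between 8.13% and 8.73% in SI monolayers and between 2.43% and 2.84% in LI monolayers.

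Outside the set, the 8 tested genes with a mean of at least 1 CPM whose pattern over the 12 libraries was most like the mean of the members were Pygl, Me2, Ndst1, Aspa, Ptpn6, Sdha, Tmem170 and Xdh, with Pearson's r from 0.996 to 0.991. Libraries of a group resemble each other, so that r mainly reflects the order of the 4 groups. Pygl, a glycogen phosphorylase, had 2238, 2253 and 2025 normalized counts in SI tissue, 199.6, 197 and 175 in SI monolayers, 457, 468 and 334 in LI tissue and 65.5, 94.1 and 76.1 in LI monolayers. Aspa, which cleaves N-acetylaspartate, had 5013, 5531 and 3473 in SI tissue, 255, 255 and 209.7 in SI monolayers, 433, 591 and 583 in LI tissue and 51.98, 91.8 and 84.00 in LI monolayers. Both showed 4 separate groups in the order SI tissue, LI tissue, SI monolayers, LI monolayers. Pearson's r does not depend on the size of a change, and some of the 8 genes changed far less. Means in SI tissue and SI monolayers were 5443 and 3318 for Ndst1 and 64786 and 30349 for Sdha. Of the 8, Ptpn6 is in the list of further tuft cell genes, whereas Sdha, a subunit of succinate dehydrogenase, and Me2, a malic enzyme, are mitochondrial enzymes of many cells. Among 13471 genes searched, 324 (2.41%) had an r of at least 0.95.

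Promoter sequences, 250 bases before to 50 after a RefSeq gene start (GRCm38.p6), matched 7 of the 10 genes: Gfi1b, Trpm5, Sh2d6, Dclk1 (with 2 starts), Avil, Ptgs1 and Hpgds; Pou2f3, Il25 and Alox5ap had no entry. POU-domain proteins are known to bind the octamer, so the letters ATGCAAAT and the looser ATGCNAAT, which contains the first, were searched on both strands. Of 8 member promoters 1 held the octamer, that of Hpgds, and the looser form gave the same match alone; of 32851 promoters in the table, 1.74% held the octamer and 3.15% the looser form. The match starts 174 bases before the RefSeq start, at −174, on the strand of the gene. The RefSeq starts used for Hpgds and Sh2d6 lie inside the gene bounds given above, and so do the match, by a few bases, and the whole Sh2d6 window, so that the distance depends on the start used. A match is a description of the sequence and no evidence of binding, and the absence of these letters from the other windows says nothing of Pou2f3. The Hpgds promoter (chr6:65144681-65144980, minus strand) is shown with the octamer in capitals, beside that of Sh2d6 (chr6:72519987-72520286, minus strand), the gene with the largest fall in SI culture, which holds no match.
Hpgds: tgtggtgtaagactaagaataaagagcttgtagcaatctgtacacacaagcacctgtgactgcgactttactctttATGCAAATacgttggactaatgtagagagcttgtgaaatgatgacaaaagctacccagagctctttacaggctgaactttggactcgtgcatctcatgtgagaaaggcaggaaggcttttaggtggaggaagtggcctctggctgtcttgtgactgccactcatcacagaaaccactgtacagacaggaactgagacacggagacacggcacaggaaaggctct
Sh2d6: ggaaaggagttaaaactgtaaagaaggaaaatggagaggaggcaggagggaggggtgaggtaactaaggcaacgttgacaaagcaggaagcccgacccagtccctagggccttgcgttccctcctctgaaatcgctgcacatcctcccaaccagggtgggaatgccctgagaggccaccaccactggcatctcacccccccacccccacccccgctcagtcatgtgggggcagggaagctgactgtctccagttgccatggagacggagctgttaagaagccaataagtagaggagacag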

How the data were processed

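The authors aligned paired-end reads to GRCm38 with STAR 2.7.9a and made the counts per gene of GENCODE vM25 with featureCounts 2.0.2. The deposited signal values, called normalized counts here, are those counts after scaling by the authors with DESeq2 (1 constant for each library, no log); these constants lay between 0.850 and 1.12. Among counts of 1 to 20, 73.4% to 77.4% per library were even numbers, and strand and mate settings are not stated, so both mates of a pair may have been counted, and counts cut to 1 in 2 were an alternative. Total counts per library were 59016196 to 76216530.

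All 12 libraries were fitted in 1 model of 4 group means with edgeR 4.0.16 (R 4.3.3; filterByExpr, TMM, robust quasi-likelihood fit), which left 19581 genes; the study states no test for these comparisons. Calls used a Benjamini-Hochberg adjusted p under 0.05 over all tested genes and a log2 fold change of 1 or more in size. Alternatives were DESeq2 1.42.0, upper quartile scaling, no filter, no minimum fold, only the compared groups, a replicate block, counts cut to 1 in 2, and leaving out each library. Levels per kilobase used the union of exons. Members and gene lists were chosen with earlier results of these data known. Some genes of the lists are not reported here, and list counts, medians and sums are given without them. Named genes are the 10 members, up to 4 genes of a list with the highest mean CPM, and the 8 genes with a mean of at least 1 CPM whose log2 CPM (prior count 2) had the highest Pearson's r with the members' mean z-score; other named genes were chosen after their values were seen. A list is led by the gene with the highest mean of normalized counts over all 12 libraries. Tables were handled with Python 3.11.15, pandas 2.3.3 and numpy 2.4.6, and plots made with matplotlib 3.10.9.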

Additional observations from a re-analysis of the deposited data

Results flagged for a closer look

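The change over 24 h of culture differed between the regions by the interaction test of edgeR for 5 of the 10 tuft cell genes, called lower, against 8.51% of all tested genes lower and 11.4% higher. The log2 fold change in SI culture minus that in LI culture was −2.37 for Hpgds, −2.34 for Ptgs1, −2.30 for Sh2d6, −1.85 for Gfi1b and −1.16 for Dclk1. Each of these genes fell in SI culture, and Ptgs1 was the one of them that was not called in LI culture. Without LI monolayers replicate 3 the Gfi1b value was −1.19 and the Dclk1 value was −0.99, and neither was called. Digestion with enzymes was used for LI crypts alone and cannot be told apart from region.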

How the results depend on the processing

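Of the log2 fold changes of the 10 genes under all alternatives, 912 kept their direction and side of the threshold, 10 were called where they had not been, 11 lost their call and 6 changed sign. The 6 belonged to values that were not called, and the cause was not tested. Leaving out 1 library gave a range of −3.57 to 4.43 for Il25 between the monolayers, −5.69 to 2.31 for the Il25 interaction and −0.21 to 0.31 for the Pou2f3 interaction. The number of the 10 genes called for the interaction ranged from 3 to 6 over the left-out libraries, with 3 without LI monolayers replicate 3; the other counts ranged over 10 to 10 (SI culture), 8 to 10 (LI culture), 9 to 10 (tissues) and 7 to 8 (monolayers). With no minimum fold change, calls among all tested genes were 11674 in SI culture, 13445 in LI culture, 10558 between tissues, 10145 between monolayers and 9069 for the interaction, because that setting drops a criterion. With a replicate block, 10, 9, 10, 8 and 5 of the 10 genes were called in the same order of comparisons. Libraries with the same number did not resemble each other across groups: residual r lay between −0.05 and 0.06 over 18 pairs of libraries. The interaction had no fit on the compared groups alone, and Il25 was not tested between the monolayers in that setting. Values at few counts, as for Il25 and in LI monolayers for Alox5ap, Gfi1b and Pou2f3, are limited by depth.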

Other observations

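Beside the tuft cell genes, the lists of other cells gave the values below, with counts of genes called by edgeR, SI against LI; a direction that is not given had no call. Mast cell genes (9 tested) had a median log2 fold change of −0.26 in SI culture and −3.71 in LI culture. For mast cell genes the counts were 1 lower in SI tissue against LI tissue (median 0.51), 5 higher and 1 lower in the monolayers (median 3.81) and 6 higher for the interaction (median 3.28). Macrophage genes (10 tested) had a median log2 fold change of −0.44 in SI culture and −3.21 in LI culture. For macrophage genes the counts were 1 higher and 6 lower in SI tissue against LI tissue (median −1.66), 2 higher and 4 lower in the monolayers (median −0.79) and 4 higher for the interaction (median 0.95). Megakaryocyte and red cell genes (8 tested) had a median log2 fold change of −1.74 in SI culture and −3.21 in LI culture. For megakaryocyte and red cell genes the counts were 1 higher and 4 lower in SI tissue against LI tissue (median −1.25), 3 higher and 4 lower in the monolayers (median −1.54) and 2 lower and 1 higher for the interaction (median 0.99). Mesenchymal genes (10 tested) had a median log2 fold change of −0.28 in SI culture and −0.62 in LI culture. For mesenchymal genes the counts were 7 lower in SI tissue against LI tissue (median −1.93), 7 lower in the monolayers (median −2.10) and 1 lower and 1 higher for the interaction (median −0.14). Genes of neurons and glia (8 tested) had a median log2 fold change of −0.34 in SI culture and 0.67 in LI culture. Genes of neurons and glia had no call in SI tissue against LI tissue (median 0.72), no call in the monolayers (median −0.36) and 2 lower for the interaction (median −0.86). T cell genes (9 tested) had 7 higher in SI tissue against LI tissue (median 2.58), 6 higher in the monolayers (median 2.60) and 1 lower for the interaction (median −0.34). Genes of all leukocytes (5 tested) had 4 higher in SI tissue against LI tissue (median 1.58), 3 higher in the monolayers (median 1.39) and no call for the interaction (median −0.18).

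Enteroendocrine genes (9 tested) had 5 higher and 1 lower in SI tissue against LI tissue (median 1.14), 2 higher and 3 lower in the monolayers (median −0.27) and 6 lower for the interaction (median −1.27). Goblet cell genes (7 tested) had 5 lower in SI tissue against LI tissue (median −1.32), 5 higher and 1 lower in the monolayers (median 1.55) and 6 higher for the interaction (median 2.38). For Paneth cell genes the counts were 6 higher in SI tissue against LI tissue (median 7.20), 6 higher in the monolayers (median 6.29) and 1 higher for the interaction (median −0.59). For stem cell genes of the crypt base the counts were 4 higher in SI tissue against LI tissue (median 1.12), 4 higher in the monolayers (median 4.41) and 1 lower and 4 higher for the interaction (median 3.27). Genes of all epithelial cells (7 tested) had 1 higher and 1 lower in SI tissue against LI tissue (median −0.30), 1 higher in the monolayers (median −0.31) and 1 higher for the interaction (median 0.02). For genes of the small intestine the counts were 6 higher in SI tissue against LI tissue (median 7.53), 5 higher in the monolayers (median 4.21) and 3 lower for the interaction (median −2.16). Genes of the large intestine (4 tested) had no call in SI culture (median 0.59) and 4 lower in LI culture (median −2.11). For genes of the large intestine the counts were 4 lower in SI tissue against LI tissue (median −8.65), 4 lower in the monolayers (median −6.20) and 3 higher for the interaction (median 2.46). The 6 stem cell genes, led by Olfm4, summed to 115748, 99667 and 128534 normalized counts in SI tissue, 21402, 21028 and 19554 in SI monolayers, 27075, 27489 and 25159 in LI tissue and 20479, 21308 and 22363 in LI monolayers. Most of the LI sums was Slc12a2, with 20763, 21857 and 19158 in LI tissue and 20272, 20712 and 21862 in LI monolayers, so that these sums do not show the falls of 4 other genes of the list. The 4 genes of the large intestine, led by Car1, summed to 398, 416 and 240.5 in SI tissue, 908, 449 and 140.4 in SI monolayers, 135845, 282306 and 125262 in LI tissue and 25979.9, 26775 and 25849 in LI monolayers.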
